A study of Mus musculus with 12 samples.

Results

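The genes described here are 10 members of the Notch pathway in the mouse prefrontal cortex: the receptors Notch1, Notch2, Notch3 and Notch4, the ligands Dll1, Jag1 and Jag2, and the target genes Hes1, Hes5 and Hey1. They are given by name, with no threshold on their values, and all 10 were found among the 40508 named genes of the deposited expression tables. Male C57BL/6 mice (C57BL/6 J in the study's methods) aged 10 weeks received cocaine at 20 mg/kg once a day for 14 days, by intraperitoneal injection, or saline on the same schedule. Bilateral prefrontal cortex was dissected 2 h, 24 h or 7 d later, which gave a cocaine group and a saline control group at each time. Each of the 6 groups was sequenced as 2 libraries, and each library held the pooled tissue of 5 animals. No animal carried an engineered allele, all had been injected daily, and the tissue was unsorted, so that fewer cells of a type and less RNA per cell cannot be told apart.

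The tables give 1 pooled FPKM per group and time (fragment numbers divided by transcript length and by library size, a level per length), in which the authors joined both libraries of the group. The spread between libraries and the depth behind a value are therefore unknown, no test was made, and every difference below is a description of pooled values. Differences are cocaine minus control of log2(FPKM + 0.1), which slightly understates the change of a low gene. A gene counts as past the fold at a log2 difference of 0.32 or more in size and a mean of both groups of at least 1 FPKM. The 3 tables were normalised separately, so that levels set side by side across times are less comparable than the control and cocaine values of 1 time.

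Notch receptors are single-pass membrane proteins that are activated by ligands of the Delta and Jagged families on a neighbouring cell. Binding leads to cleavage by ADAM proteases and then by gamma-secretase, and the freed intracellular part enters the nucleus, where it joins the DNA-binding protein RBPJ and the coactivators of the Mastermind family. Hes and Hey genes, which encode basic helix-loop-helix repressors, are among the best known targets. In the adult brain the pathway is known from neural stem cells, astrocytes, blood vessels and mature neurons, in which it has been linked to synaptic plasticity.

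The sequence shown is that of Hes5, because it was the one promoter of a member that held the letters bound by RBPJ. RefSeq (GRCm38.p6) gave 9 promoters for 8 of the members, each from 250 bases before to 50 bases after a start of transcription. The promoters of Hes1 and Hey1 were not analysed here. The letters GTGGGAA, searched on both strands, were present in 6.38% of the 32851 promoters in the RefSeq table and at least 2 times in 0.256% of them. The bases before the start of Hes5, chr4:154960673-154960922 on the plus strand, are printed 5′ to 3′ with the matches in capitals, the first of which lies on the minus strand.
Hes5: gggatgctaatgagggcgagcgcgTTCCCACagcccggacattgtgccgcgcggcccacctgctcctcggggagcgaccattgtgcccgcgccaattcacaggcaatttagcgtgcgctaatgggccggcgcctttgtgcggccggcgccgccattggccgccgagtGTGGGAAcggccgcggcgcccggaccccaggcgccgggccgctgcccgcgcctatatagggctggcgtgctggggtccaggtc
The matches began at -226 and -83 from this annotated start. The RefSeq gene span itself begins at 154960626, so that the printed bases lie inside it. The other member promoters had no match to these letters, and none of the 9 held the palindromic cAMP response element TGACGTCA (in 1.79% of all promoters) or the E-box CACGTG (in 7.15%). A match describes the letters and is not evidence of binding. Of the 300 bases in the Hes5 entry 72.7% were G or C, against a median of 52.7% over all promoters.

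The members differed far more in level from each other than between groups. Hey1, a target gene also known from blood vessels, stood highest at 29.6 to 34.3 FPKM over the 6 groups (median 32.3), and Hes5, which in the brain is best known from neural stem cells and astroglia, came next at 10.6 to 15.9 FPKM (median 14). Hes1 followed at 5.18 to 9.11 FPKM (median 7.04). Jag2 was the ligand with the highest level, 4.96 to 6.85 FPKM (median 5.63). All targets thus stood above the receptors: Notch1 spanned 1.91 to 3.56 FPKM (median 2.78), Notch4, the receptor typical of endothelium, 1.88 to 3.09 FPKM (median 2.42), Notch2 1.23 to 2.37 FPKM (median 1.70) and Notch3, the receptor typical of mural cells, 1.33 to 1.93 FPKM (median 1.70). Dll1 at 0.697 to 1.78 FPKM (median 1.0) and Jag1 at 0.799 to 1.12 FPKM (median 0.979) had the lowest medians. The ranges of Hey1, Hes5 and Hes1 did not overlap each other, and that of Notch1 did not overlap that of Jag2. The ranges of Hes1 and Jag2, of the 4 receptors overlapped, as did that of Dll1 with those of Jag1, Notch2 and Notch3, so that these neighbours were not separated by their own spread over groups.

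**Figure D1:**
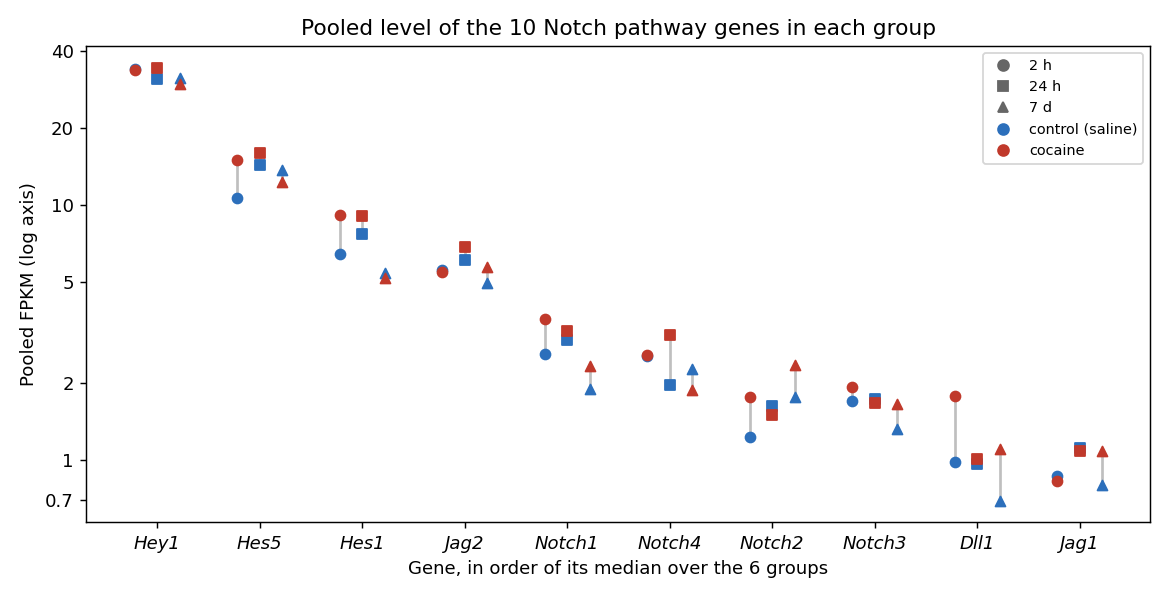
Pooled level in FPKM (log axis) of the 10 genes in the control (blue) and cocaine (red) groups at 2 h (circles), 24 h (squares) and 7 d (triangles), with a grey line joining the groups of 1 time and no error bars because each value is already pooled. Hey1 lies near 30 FPKM throughout, Dll1 and Jag1 lie near 1 FPKM, and the widest gaps between cocaine and control are those of Dll1 at 2 h and 7 d and of Notch4 at 24 h.

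At 2 h after the last injection, receptors, a ligand and targets were higher in the cocaine group. Past the fold were Notch1, Notch2, Dll1, Hes1 and Hes5, 5 of the 9 members that reached the minimum level, and none was past it downward. Over all 13968 genes at that minimum, 7.11% were past the fold upward and 5.33% downward. Dll1 reached the minimum mean only through its cocaine group, and with a minimum of 1 FPKM set on the control (an alternative chosen after seeing the data) 4 of 8 members were past the fold upward, against 6.04% of all genes. The members' median log2 difference was 0.44 for the 9, and 0.30 with Jag1, which was under the minimum, against 0.02 for all genes. Summed over the 10 members, the level was 66.5 FPKM in the control and 75.5 FPKM in the cocaine group. Of these sums Hey1 held 33.9 and 33.5 FPKM, so that they say little about receptors and ligands.

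Among the receptors at 2 h, Notch1 stood at 2.61 FPKM in the control and 3.56 FPKM in the cocaine group, a log2 difference of 0.44. Notch2 stood at 1.23 and 1.78 FPKM, a difference of 0.49. These are the receptors most widely expressed in the nervous system, and both were higher with cocaine. Notch3 was 1.71 FPKM in the control and 1.93 FPKM with cocaine (log2 difference 0.16), and Notch4 was 2.56 and 2.58 FPKM (0.01), so that the receptors best known from vessels differed little or not at all. Of the ligands, Dll1 had the largest log2 difference of any member at this time, 0.79, from 0.987 FPKM in the control to 1.78 FPKM with cocaine. The Jagged ligands did not share its direction: Jag1 was 0.873 FPKM in the control and 0.831 FPKM with cocaine (log2 difference -0.06), and Jag2 was 5.55 and 5.48 FPKM (-0.02).

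The 2 Hes targets had like differences at 2 h. Hes1 was 6.42 FPKM in the control and 9.11 FPKM in the cocaine group, a log2 difference of 0.50, and Hes5 was 10.6 and 14.9 FPKM, a difference of 0.49. Hey1, at the highest level of the members, was 33.9 FPKM in the control and 33.5 FPKM with cocaine (-0.02). Low genes pass a fold more often than high ones, so the members are read beside genes of like level: at 2 h, 13.4% of genes with a mean of 1 to 2 FPKM (the range of Notch2 and Dll1) were past the fold upward, 11.9% of those at 2 to 4 FPKM (Notch1), 8.34% at 4 to 8 FPKM (Hes1) and 4.98% at 8 to 16 FPKM (Hes5). Hes5 was thus the member past the fold at the level where the fewest genes were.

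**Figure D2:**
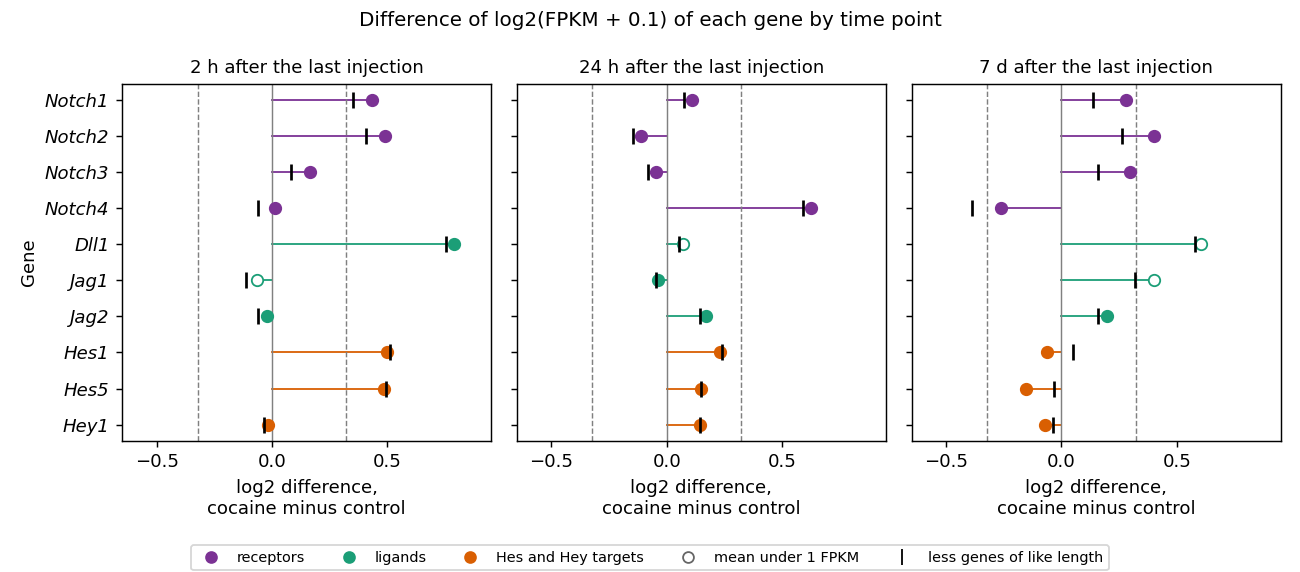
Log2 difference of FPKM + 0.1, cocaine minus control, of each member at 2 h, 24 h and 7 d (circles, coloured by role, open where the mean is under 1 FPKM), with a difference of 0.32 in either direction as dashed lines and black ticks for the difference less the median of genes of like transcript length. At 2 h Dll1, Hes1, Notch2, Hes5 and Notch1 lie right of the fold, at 24 h Notch4 does, and at 7 d Notch2 does among the filled circles.

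At 24 h the differences of the 2 h members were smaller, and Notch4 was the one member past the fold. Notch4 was 1.97 FPKM in the control and 3.09 FPKM with cocaine, a log2 difference of 0.63. That was 1 of 9 members at the minimum level, with none past the fold downward, where 4.05% of 14135 genes were past it upward and 3.74% downward (5.85% upward among genes at 2 to 4 FPKM, the level of Notch4). The median difference was 0.15 for the 9 members and 0.01 for all genes. The summed level was 69.4 FPKM in the control and 77.6 FPKM with cocaine, of which Hey1 held 31.0 and 34.3 FPKM.

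The targets at 24 h were all slightly higher with cocaine and all inside the fold. Hes1 was 7.66 FPKM in the control and 9.0 FPKM with cocaine (log2 difference 0.23), Hes5 was 14.3 and 15.9 FPKM (0.15), and Hey1 was 31.0 and 34.3 FPKM (0.15). Of the other receptors, Notch1 was 2.96 FPKM in the control and 3.20 FPKM with cocaine (0.11), while Notch2 at 1.64 and 1.51 FPKM (-0.11) and Notch3 at 1.74 and 1.68 FPKM (-0.05) were on the other side of 0. Among the ligands, Jag2 was 6.07 FPKM in the control and 6.85 FPKM with cocaine (0.17) and Jag1 was 1.12 and 1.08 FPKM (-0.04). Dll1, whose mean of 0.991 FPKM was just under the minimum, was 0.965 and 1.02 FPKM (0.07), and so no longer showed the gap of 2 h.

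At 7 d fewer members were past the fold than at 2 h. Notch2 was the one member past the fold among the 8 at the minimum level, at 1.77 FPKM in the control and 2.37 FPKM with cocaine, a log2 difference of 0.40. Over 14054 genes, 5.22% were past the fold upward and 7.78% downward, and at 2 to 4 FPKM, the level of Notch2, 6.73% were past it upward. The mean of Notch2, 2.07 FPKM, lay at the lower edge of that band, and at 1 to 2 FPKM 14.9% were past the fold upward. The median difference was 0.07 for the 8 members and 0.24 for all 10, against -0.01 for all genes. The summed levels were 63.9 FPKM in the control and 63.1 FPKM with cocaine, mostly from the targets (50.1 and 47.0 FPKM). Receptors summed to 7.29 and 8.25 FPKM and ligands to 6.45 and 7.90 FPKM.

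Notch3 was 1.33 FPKM in the control and 1.66 FPKM with cocaine at 7 d, a log2 difference of 0.30 that lay just inside the fold, and Notch1 was 1.91 and 2.34 FPKM (0.28). Notch4 was 2.28 FPKM in the control and 1.88 FPKM with cocaine (-0.26), the opposite side from 24 h. The receptors thus lay on both sides of 0 at this time. Jag2 was 4.96 and 5.70 FPKM (0.20). Dll1 at 0.697 and 1.11 FPKM (0.60) and Jag1 at 0.799 and 1.09 FPKM (0.40) had larger differences but means of 0.904 and 0.944 FPKM, under the minimum. Of the targets, Hes1 was 5.42 FPKM in the control and 5.18 FPKM with cocaine (-0.06), Hes5 was 13.6 and 12.2 FPKM (-0.15), and Hey1 was 31.1 and 29.6 FPKM (-0.07).

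The difference at 7 d went with transcript length across all genes, and the roles differ in length. The median log2 difference was -0.23 in the shortest of 20 length groups (median 669 nt) and 0.14 in the longest (9114.5 nt). At 2 h these medians were 0.01 and 0.08, and at 24 h they were -0.02 and 0.03. Receptor transcripts are long, from 6591 nt for Notch4 to 10506 nt for Notch2, and target transcripts short, from 1273 nt for Hes5 to 2203 nt for Hey1. Less the median of genes of like length, the 7 d differences were 0.26 for Notch2, 0.16 for Notch3, 0.14 for Notch1 and -0.39 for Notch4, so that Notch2 came inside the fold and Notch4 went past it downward. The targets came to 0.05 for Hes1, -0.03 for Hes5 and -0.04 for Hey1. Dll1 kept 0.58, and Jag1 came to 0.3195, just inside the fold (0.3219 before rounding). At 2 h the same step left 0.75 for Dll1, 0.51 for Hes1, 0.49 for Hes5, 0.41 for Notch2 and 0.35 for Notch1, all still past the fold, and at 24 h it left 0.59 for Notch4. Of all genes past the fold at 7 d, 40.2% were higher with cocaine. Over the 11796 genes with a length, the share was 41.3% as deposited and 53.8% after this step. Of genes with a length, 5.06%, 2.40% and 3.65% were past the fold upward after this step at 2 h, 24 h and 7 d. Downward it was 4.04%, 2.53% and 3.14%. The part of the length trend in the 7 d values of the members was not tested further.

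**Figure D3:**
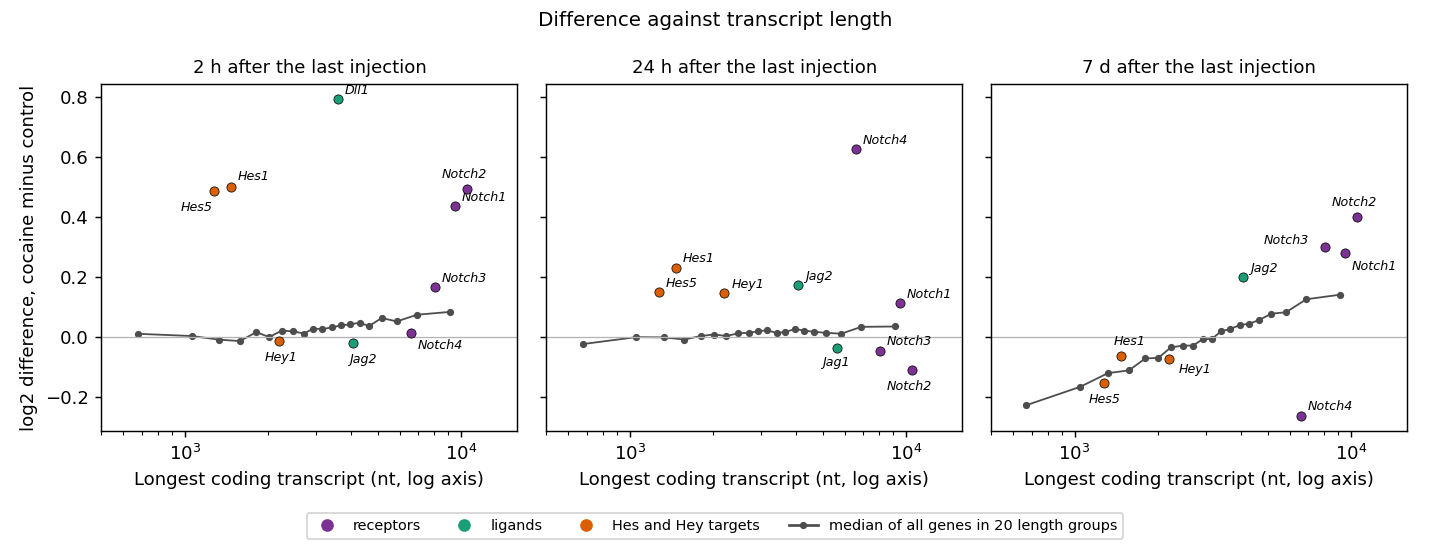
Log2 difference, cocaine minus control, against the length of the longest coding transcript (nt, log axis) for the members with a mean of at least 1 FPKM, with the median of all genes in 20 length groups as a grey line. At 7 d the line climbs from -0.23 to 0.14, with Hes1, Hes5 and Hey1 at -0.04 to 0.05 from it, while at 2 h Hes1 and Hes5 lie 0.51 and 0.49 above genes of their length.

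**Figure D4:**
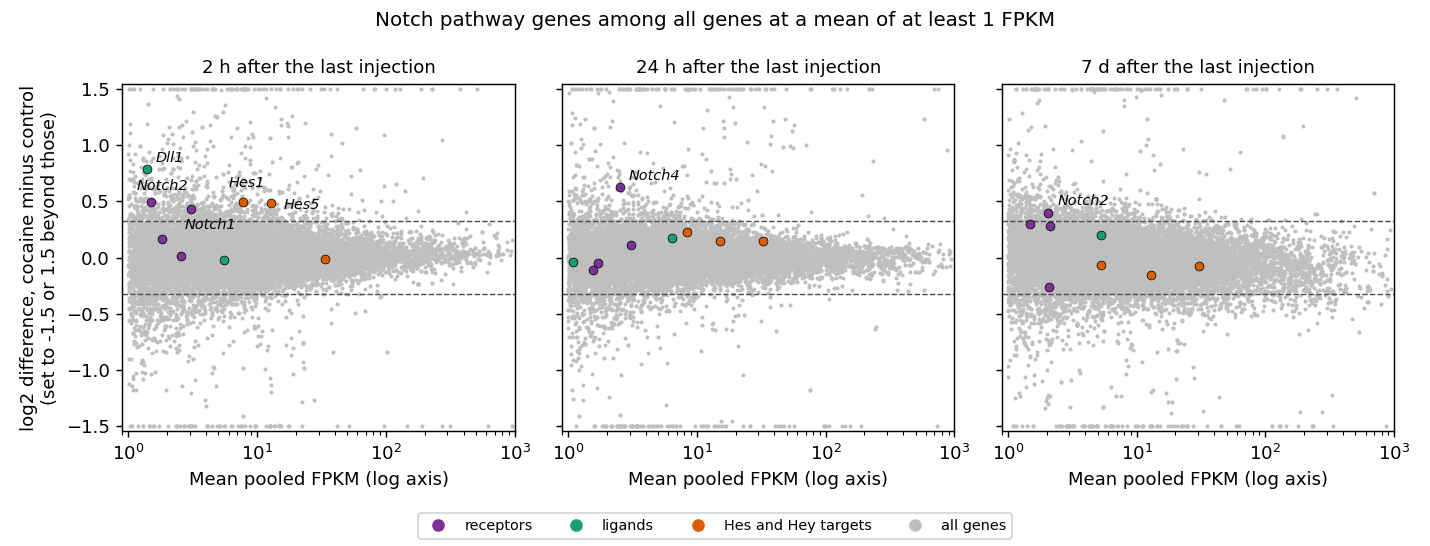
Log2 difference, cocaine minus control, against mean pooled FPKM (log axis) for the members (coloured by role) and all genes with a mean of at least 1 FPKM (grey), with a difference of 0.32 in either direction as dashed lines and values beyond 1.5 drawn at 1.5. The grey cloud widens at low level, where Notch2 and Dll1 lie at 2 h, and is narrower at the level of Hes1 and Hes5.

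The control groups themselves differed between times, on values normalised per table, by up to 0.60 on the log2 scale, which is more than the cocaine differences of Notch1, Notch2, Hes1 and Hes5 at 2 h and less than those of Dll1 at 2 h (0.79) and Notch4 at 24 h (0.63). The widest gap was that of Notch1, lower in the 7 d than in the 24 h control (-0.60). From the 2 h to the 7 d control, Notch2 was 0.49 higher on the log2 scale and Hes5 0.35 higher, whereas Notch1 (-0.43), Dll1 (-0.45) and Notch3 (-0.34) were lower. From the 2 h to the 24 h control, Hes5 was 0.43 higher, Notch2 0.38 higher and Notch4 lower (-0.36). Over all genes, 16.4% and 10.3% of genes differed past the fold between these controls in either direction, with medians of -0.00 and 0.02. The 2 h control was accordingly the lowest of all 6 values for Hes5 and for Notch2, and the 2 h cocaine value of Hes5, 14.9 FPKM, was close to the 24 h control of 14.3 FPKM. The 2 h cocaine value of Notch2, 1.78 FPKM, was close to the 7 d control of 1.77 FPKM. Notch1 and Dll1 differ in this, since their 2 h cocaine values, 3.56 and 1.78 FPKM, exceeded every control, of which the highest were 2.96 and 0.987 FPKM. Hes1 at 2 h with cocaine, 9.11 FPKM, also exceeded every control, up to 7.66 FPKM. Whether the 2 h differences reflect the treatment or the control libraries of that time was not tested here, because no spread within a group is known. The study's own RNA-seq comparison at 2 h marked Notch2 as significantly higher with cocaine, and did not mark Notch1. In the study's RT-PCR at 2 h, Notch1 was near the saline level and Notch2 somewhat below it, neither marked as significant. For Notch2 the 2 methods of the study thus differed in direction.

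Of 56 other pathway genes, 48 reached the minimum at 2 h, with 3 past the fold upward (6.25%, beside 7.11% of all genes), 1 downward and a median difference of 0.04. At 24 h it was 1 upward (2.08%, beside 4.05%) and 1 downward of 48, with a median of 0.03. At 7 d it was 6 upward (12.2%, beside 5.22%) and 1 downward of 49, with a median of 0.07. Of those 6, only Adam17 and Neurl1b stayed past the fold less the median of genes of like length. The nuclear partners of Notch gave Maml3, a Mastermind coactivator, at 0.885 FPKM in the 2 h control and 1.18 FPKM with cocaine (0.38), and it too reached the minimum only through the cocaine group. Ep300, a histone acetyltransferase of the same complex, was 3.90 and 4.91 FPKM at 7 d (0.32). None of the 8 proteases that cut Notch was past the fold at 2 h or 24 h. At 7 d Adam17, a protease able to cut the receptor outside the membrane, was 2.31 FPKM in the control and 3.20 FPKM with cocaine (0.46), and Psenen, a small subunit of gamma-secretase, was 91.6 and 63.9 FPKM (-0.52).

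Corepressors that act with RBPJ or with Hes proteins gave most of the remaining differences. Tle3, a Groucho corepressor recruited by Hes proteins, was past the fold at every time: 8.83 FPKM in the control and 12.6 FPKM with cocaine at 2 h (0.51), 8.05 and 10.2 FPKM at 24 h (0.33), and 6.67 and 8.59 FPKM at 7 d (0.36). Spen, which represses RBPJ targets in the absence of Notch activity, was 3.37 and 4.98 FPKM at 2 h (0.55), 4.37 and 4.14 FPKM at 24 h (-0.08) and 2.93 and 3.73 FPKM at 7 d (0.34). Tle2, of the same family as Tle3, had the opposite direction at 2 h, 3.81 FPKM in the control and 2.78 FPKM with cocaine (-0.44). Of ubiquitin ligases that act on Notch ligands, Neurl1b was 6.70 and 8.96 FPKM at 7 d (0.41) and Neurl1a was 57.3 and 72.7 FPKM (0.34). Among the other target genes, Heyl was 1.12 FPKM in the control and 0.877 FPKM with cocaine at 24 h (-0.33). Less the median of genes of like length, Tle3 came to 0.48 at 2 h but to 0.31 at both later times, inside the fold. At 7 d the same step brought Psenen (-0.29), Neurl1a (0.30), Spen (0.20) and Ep300 (0.18) inside the fold and left Adam17 (0.40) and Neurl1b (0.33) past it. At 2 h it brought Maml3 (0.30) inside and left Spen (0.47) and Tle2 (-0.45) past it, and at 24 h it left Heyl (-0.34) past it. Hes2 was listed at 0 in a group at 24 h and 7 d, and Hes3 at 7 d.

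The marker genes of cells in which Notch genes are expressed were compared beside these values. At 2 h all 8 astrocyte markers were higher with cocaine, with a summed level of 935 FPKM in the control and 1058 FPKM with cocaine (log2 difference 0.18), and 7 of 8 endothelial markers were higher (summed difference 0.18), none of either list past the fold. The astrocyte sum was mostly Aldoc, and single markers reached 0.23 in the astrocyte and 0.28 in the endothelial list. Hes1, Hes5, Notch1 and Notch2 stood at 0.50, 0.49, 0.44 and 0.49 at 2 h. Past the fold upward at 2 h in lists of other cells were Sox11 of progenitors and neuroblasts (0.51) and Adora2a of striatal neurons (0.38). So were Tmem119 of microglia (0.35) and Tagln of mural cells (0.33). Of 3 progenitor and neuroblast markers at the minimum, 2 were higher at 2 h, while Dcx was lower (-0.31). In the other lists 3 of 4 striatal, 4 of 6 microglial and 6 of 8 mural markers at the minimum were higher at 2 h, so that none of these lists went 1 way. Sox11 was past the fold at 24 h too (0.36). At 24 h, when Notch4 was past the fold, 6 of 8 endothelial markers were lower with cocaine (median difference -0.07, sum -0.01). At that time 7 of 8 astrocyte markers were lower (median -0.14), with Gfap past the fold downward (-0.35), although their sum, mostly Aldoc, differed by only -0.05, and all 6 oligodendrocyte markers were lower (sum -0.26). At 7 d 7 of 8 astrocyte and 7 of 8 endothelial markers were higher (sums 0.09 and 0.08), with Sox9 (0.35) and Flt1 (0.33) past the fold. Mural markers differed by 0.22 in sum at 7 d, beside the 0.30 of Notch3, with Acta2 and Myh11, contractile proteins of smooth muscle, past the fold upward, as were 3 of 5 markers of meningeal fibroblasts. The choroid plexus marker Ttr was 1.90 FPKM in the control and 0.461 FPKM with cocaine at 2 h, differed by -0.66 at 24 h, and was 0.284 and 6.54 FPKM at 7 d, while Otx2 was at 0 in a group at every time. The other markers of that list lay under the minimum level and went both ways at every time, so that Ttr does not stand for the list. Markers of cortical excitatory neurons were all present; their sum, mostly Slc17a7, differed by 0.03, 0.04 and 0.03 at 2 h, 24 h and 7 d, but at 7 d Neurod6 (-0.41) and Fezf2 (-0.39) were past the fold downward while Cux2 differed by 0.30. The part of these cell types in the members' values was not tested. The immediate-early genes were past the fold upward for 8 of 8, 7 of 8 and 6 of 7 genes at the minimum at 2 h, 24 h and 7 d.

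Genes whose 3 differences most resembled those of a member were sought among 13552 genes at the minimum level in every table, by the Euclidean distance between the log2 differences. Nearest to Notch1 (0.44, 0.11 and 0.28 at 2 h, 24 h and 7 d) were Ttc28 at a distance of 0.0278, Mertk, a receptor kinase for the uptake of cell debris, at 0.0304 and Ago2, the Argonaute protein that cleaves RNA, at 0.0484. Nearest to Hes5 (0.49, 0.15 and -0.15) were Creld2, a protein of the endoplasmic reticulum, at 0.0467, Id1, an inhibitor of basic helix-loop-helix factors, at 0.0585 and 4931414P19Rik at 0.0593. Of the members, Hes1 was the 19th nearest gene to Hes5 (distance 0.122) and Notch2 the 599th nearest to Notch1 (0.26). The targets Hes1 and Hes5 therefore resembled each other over the 3 times more than the receptors Notch1 and Notch2 did, as a description over 3 differences.

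Positions are those of the deposited loci on GRCm38. Notch1 was listed at chr2:26445696-26516663, which ran beyond the RefSeq gene by 12206 and 12841 bases and overlapped Sec16a, 0610009E02Rik, Mir6996 and Gm35978. Hes5 was listed at chr4:154957897-154962371, beginning 2729 bases before the RefSeq gene, and Hes1 at chr16:30064384-30067796. Dll1 was at chr17:15367354-15379475, Notch2 at chr3:98013538-98150367 and Notch4 at chr17:34564268-34588568. The loci of Notch4, Dll1, Jag1, Hes1 and Hes5 overlapped no other RefSeq gene. The kit does not mark the strand, so that reads of Notch1 and of the genes overlapping its locus could not be told apart where they share exons, and their part in the Notch1 values was not tested. In the 7 d table a second locus named Notch3, with the same coordinates, held 0.210 FPKM in the control and 0.254 FPKM with cocaine and was not used.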

How the data were processed

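Poly-A RNA libraries were sequenced on an Illumina HiSeq, 2 libraries for each of 6 groups. Per the labels' processing notes the authors used CASAVA 1.8.2, Trimmomatic 0.32, TopHat2 2.0.12, Cufflinks 2.2.1 and Cuffdiff with GRCm38. The paper's methods name mm9, but the loci match GRCm38. The authors deposited 1 table per time with 1 FPKM value per group, pooled over both libraries and scaled for length, and their own fold changes, statistics and p-values, which were not used. The first value column was read as saline control and the second as cocaine, from the order in the study's supplementary tables, since the column labels alone are ambiguous. Depth is unknown from the tables, and 0 columns hold single libraries.

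Differences of log2(FPKM + 0.1) were computed in Python 3.11.15 with pandas 2.3.3 and numpy 2.4.6, and plotted with matplotlib 3.10.9, for named genes at a mean of at least 1 FPKM, with the longest locus per gene. Transcript lengths were those of the longest GENCODE vM1 coding transcript of the symbol, found for 84.4%, 83.7% and 83.9% of genes at 2 h, 24 h and 7 d. Of the other pathway genes, up to 5 past the fold per time were named, by size of difference, and for Notch1 and Hes5 the 3 nearest genes. Ep300, the genes overlapping Notch1, and Aldoc and Cux2 were named after their values were seen. Members, pathway genes and markers were chosen with earlier results of these data known. The calculation was checked on known folds planted in values without noise, which tests the arithmetic only. The alternatives were other pseudocounts, minimum levels, folds, centring, length and choice of locus.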

Additional observations from a re-analysis of the deposited data

Results flagged for a closer look

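In 3 cases a member lay on opposite sides of 0 at 2 times, past the fold at 1 of them and at least 1.5 times apart; the difference between times was not tested, since no spread is known and the tables were normalised separately. Notch2 was higher with cocaine at 2 h and lower at 24 h, a gap of 0.60 on the log2 scale. Notch4 was higher with cocaine at 24 h and lower at 7 d, a gap of 0.89. Hes5 was higher with cocaine at 2 h and lower at 7 d, a gap of 0.64. Less the median of genes of like length, Hes5 came to 0.49 at 2 h and -0.03 at 7 d. Notch2 then came to 0.41 at 2 h and -0.15 at 24 h, and Notch4 to 0.59 at 24 h and -0.39 at 7 d. The 2 h control was the lowest of all 6 values for both Hes5 and Notch2.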

How the results depend on the processing

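Of 66 comparisons of a count or median with its alternative, 53 stayed close in size and kept their direction. Less the median of genes of like length, the 7 d count turned from 1 member upward (Notch2, then 0.26) to 1 downward (Notch4, then -0.39). No member past the fold changed sign, but 3 values near 0 did: Notch4 at 2 h, centred (-0.01) or less genes of like length (-0.06), and Hes1 at 7 d, less genes of like length (0.05). The count at 24 h stayed at 1, Notch4, under every alternative run. Restriction to genes with a length, added after seeing the data, changed no count of members. At 2 h the count of 5 fell to 1, Dll1, at a fold of 1.5. The median at 2 h was 0.31 with a pseudocount of 1, and 0.30 without a minimum, at loci that the authors marked as having enough reads, or with a control of at least 1 FPKM (an alternative chosen after seeing the data, which leaves out Dll1). At 7 d the count of 1 became 0 with a pseudocount of 1 or a fold of 1.5, 3 (Dll1, Jag1 and Notch2) without a minimum or at the loci marked by the authors, and 4 at a fold of 1.2 (Notch1, Notch2 and Notch3 upward, Notch4 downward). The 7 d median was 0.24 without a minimum or at those loci. A larger pseudocount shrinks the differences of low genes by construction (Notch2 came to 0.31 at 2 h and 0.28 at 7 d), and the other shifts in counts and medians, beside the length step, came with a change in the fold or in which genes were used. Over all genes, 2.32%, 1.67% and 1.52% were past a fold of 1.5 upward at the successive times and 1.75%, 1.46% and 2.08% downward. Without a minimum, 12%, 10.2% and 11.3% were past the usual fold upward and 12.7%, 10.7% and 12.8% downward. At 7 d 8.20% of all genes were past a fold of 1.2 upward and 11.9% downward. At the loci marked by the authors, 7.42% were past the usual fold upward and 9.25% downward at 7 d. Of 319 values of single members under the alternatives, 303 kept their side of the fold. No paired analysis was possible because each deposited value joins both libraries of a group, and for the same reason no library could be left out.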
